A study of Mus musculus with 8 samples.

Results

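The Id genes are a family of 4 genes, Id1, Id2, Id3 and Id4, that encode inhibitors of DNA binding. They were found by their gene names in a table of counts from cultured mouse molar tooth germs, where they are 4 of 35896 gene rows and hold 0.0311% of all counts. RNA-seq had been made on whole molar germs, from which the back teeth form, taken from BRE-GFP embryos and kept in culture with an agent for 1 day. The 4 groups were E12.5 germs (E for embryonic day) given the solvent DMSO, E12.5 germs given SB431542, E12.5 germs given SIS3, and E13.5 germs given DMSO as a stage control. Every group carries the BRE-GFP transgene, so no group lacks it. The sources used here give neither doses nor the number of germs or embryos behind each library.

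Id proteins have a helix-loop-helix domain but lack the basic region that contacts DNA. They pair with E proteins, the shared partners of tissue-specific basic helix-loop-helix (bHLH) factors, and keep those factors off DNA. Bone morphogenetic proteins (BMPs) bind their receptors, the receptors phosphorylate Smad1 and Smad5, and these enter the nucleus with Smad4 and act directly on Id genes, so Id transcripts are widely read as an output of the pathway. The BRE reporter is itself built from BMP-responsive elements of the Id1 promoter. In the early tooth germ, Bmp4 signals between the dental epithelium and the mesenchyme of neural crest origin that condenses beneath it. SB431542 blocks the type I receptors of TGF-beta and activin, and SIS3 is an inhibitor of Smad3, the Smad of that other branch. Neither is an inhibitor of BMP receptors.

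The promoters of 3 of the 4 Id genes, Id2, Id3 and Id4, were matched in RefSeq (GRCm38.p6) and are shown because the Id genes are described here as BMP-Smad output. Each window runs from 250 bases before the RefSeq start to 50 bases from it on, 5′ to 3′ on the strand of the gene. Id2 is at chr12:25096043-25096342 on the minus strand, Id3 at chr4:136143572-136143871 and Id4 at chr13:48260866-48261165, both on the plus strand. Both strands were searched. Capitals mark GTCT, a Smad-binding element that on the other strand reads AGAC, and GGCGCC, a GC-rich element bound by Smad1 and Smad5. The 2 elements do not overlap in these windows, and the sequences of Id2, Id3 and Id4 are printed in that order.
Id2: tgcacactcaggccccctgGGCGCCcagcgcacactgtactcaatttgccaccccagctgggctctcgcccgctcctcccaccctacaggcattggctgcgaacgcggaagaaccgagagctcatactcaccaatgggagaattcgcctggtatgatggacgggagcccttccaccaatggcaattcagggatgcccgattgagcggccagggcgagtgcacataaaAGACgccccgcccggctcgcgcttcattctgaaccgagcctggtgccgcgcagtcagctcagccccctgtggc
Id3: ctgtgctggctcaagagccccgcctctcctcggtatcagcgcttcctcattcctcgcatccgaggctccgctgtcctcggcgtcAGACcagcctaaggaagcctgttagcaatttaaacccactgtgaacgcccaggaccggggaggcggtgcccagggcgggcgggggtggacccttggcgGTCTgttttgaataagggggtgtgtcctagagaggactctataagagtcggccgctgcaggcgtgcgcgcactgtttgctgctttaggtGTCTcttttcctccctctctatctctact
Id4: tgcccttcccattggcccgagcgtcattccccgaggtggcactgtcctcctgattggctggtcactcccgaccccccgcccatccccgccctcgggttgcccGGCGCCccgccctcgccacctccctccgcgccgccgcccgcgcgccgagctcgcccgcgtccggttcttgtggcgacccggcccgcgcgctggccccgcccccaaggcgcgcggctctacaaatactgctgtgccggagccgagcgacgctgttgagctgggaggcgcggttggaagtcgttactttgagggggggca
In the Id2 window the GC-rich element lay at bases -231 to -226 from the RefSeq start, and in the Id4 window at -148 to -143. It was not in these letters for Id3. Among 32851 promoter windows of 300 bases, 11.9% hold GGCGCC on either strand. The element GTCT was present 1 time for Id2 (-23 to -20) and 3 times for Id3 (-166 to -163, -68 to -65 and 22 to 25), and 88% of all windows hold it. The Id2 window was the only one of the 3 with both elements, a combination that 9.5% of all windows hold. The windows were GC-rich, at 63.3% for Id2, 60.0% for Id3 and 73.3% for Id4, against a median of 52.7% over all windows. A match is a description of these letters and shows no binding.

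The 4 genes lie on different chromosomes (GENCODE M21 on GRCm38, the build called mm10 in the submitters' notes). Id1 (ENSMUSG00000042745) is at chr2:152736251-152737410 on the plus strand, Id2 (ENSMUSG00000020644) at chr12:25093799-25097140 on the minus strand, Id3 (ENSMUSG00000007872) at chr4:136143497-136145755 on the plus strand and Id4 (ENSMUSG00000021379) at chr13:48261228-48266026 on the plus strand. These bounds take in every annotated transcript, and the RefSeq starts used for the windows differ from the outermost GENCODE starts: they lie 1048 bases further into the gene for Id2, 325 bases further in for Id3 and 112 bases before the GENCODE start for Id4. All 4 are protein-coding, with 2 to 4 exons in the coding transcript that has the most. No 31-base word of the Id1 or Id3 transcripts occurs in another gene. For Id2, 1.6% of such words also occur in Gm6175, and for Id4 0.05% occur elsewhere. Antisense genes A330033J07Rik and Gm49291 overlap the start of Id4 on the other strand and have no row in the count table, and the sources used here do not say whether the counting used strand.

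Each group has 2 deposited columns of counts. In all groups but SIS3 the totals of the paired columns lay within 0.00749% of each other. Over genes with 1 annotated transcript their squared difference had a median of 1.19 to 1.26 times that expected if reads were split by chance between the columns. The mean of the same ratio was higher, at 1.56 to 3.03. In the SIS3 pair the totals differed by 44.5%, and the ratio had a median of 11.1 and a mean of 30.9. In the 3 close pairs the median was higher over genes with more transcripts. It was 1.55 to 1.9 over genes with 2 to 6, the class of Id1, Id2 and Id3, and 2.44 to 3.19 over genes with 7 or more. On the median over genes with 1 transcript, each of these pairs was summed and counted as 1 library. The choice of the median for this was made after both the mean and the median were seen, and it decides some calls, given below. This leaves 5 libraries of 5995709 to 30975010 counts, with 2 for SIS3 and 1 for each other group. The lone libraries have no replicate of their own and are assumed to vary as the SIS3 pair does. The TruSeq kit v2 was used for SIS3 alone and the SMARTer Universal Low Input kit for every other group, so the SIS3 agent and the kit cannot be told apart in any value below.

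All 4 Id genes were expressed in every library. Levels are given as CPM, counts scaled to the library total, first for each gene across libraries. Id1 stood at 66 CPM in E12.5 DMSO, 72.4 in SB431542, 39.9 and 71.9 in the SIS3 libraries and 26 in E13.5 DMSO. It was lowest at E13.5, and the SIS3 libraries lay on either side of the E12.5 control. Id2 stood at 137 CPM in E12.5 DMSO, 123 in SB431542, 154 and 166 in SIS3 and 72.9 in E13.5 DMSO. It too was lowest at E13.5, and its highest values were those of the SIS3 libraries.

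Id3 stood at 95.7 CPM in E12.5 DMSO, 104 in SB431542, 87.1 and 76.1 in SIS3 and 77.6 in E13.5 DMSO. The E13.5 value lay between the SIS3 libraries. Id4 stood at 39.5 CPM in E12.5 DMSO, 33.6 in SB431542, 29.9 and 29.7 in SIS3 and 35.7 in E13.5 DMSO. Its E12.5 control was the highest library and both SIS3 libraries were the lowest. In the plot of levels by library, the columns within each summed library sit close together for all 4 genes, while those of SIS3 part for Id1.

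**Figure D1:**
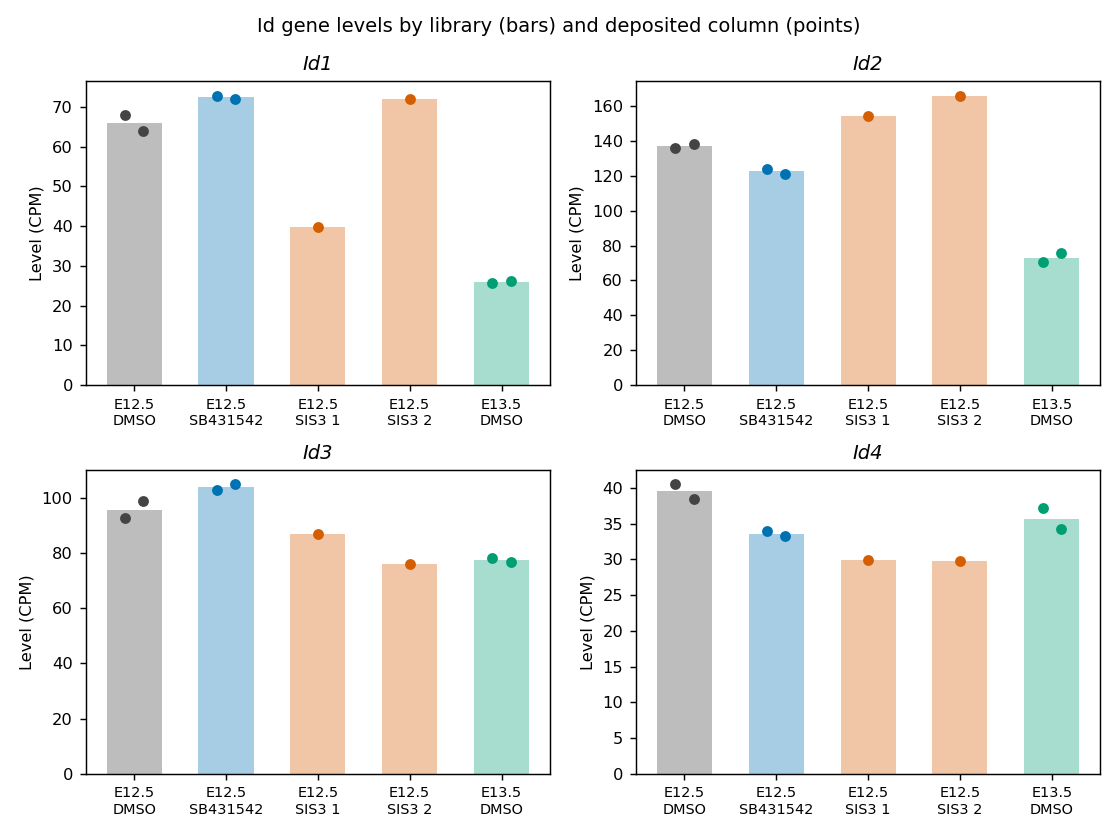
Level (CPM, vertical axis from 0) of each Id gene in the 5 libraries. Bars are libraries and points are deposited columns. Id1 and Id2 are lowest in E13.5 DMSO (26 and 72.9 CPM), and the SIS3 libraries differ most in Id1 (39.9 and 71.9 CPM).

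Id1 was the member on which the SIS3 libraries disagreed. The second had 1.8 times the Id1 level of the first, and the squared difference was 63.3 times the counting variance. For Id2 the second SIS3 library had 1.08 times the level of the first, for Id3 0.874 times and for Id4 0.995 times, with 3.29, 5.53 and 0.0029 times that variance. Within the 3 summed pairs the second column had 0.92 to 1.07 times the level of the first for the 4 genes. In the SIS3 pair, Id1 therefore had the widest spread of the family and Id4 the narrowest. The summed pairs did not share this order, as their lowest ratio, 0.92, was that of Id4 at E13.5. A single pair of libraries cannot rank the genes by spread.

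Between genes, levels can be compared only per length of transcript. In E12.5 DMSO the level per kilobase was 74.9 CPM for Id3, 69.5 for Id2, 56.9 for Id1 and 10.2 for Id4, using the longest coding transcript of each gene. With the shortest coding transcript it was 143 for Id2, 74.9 for Id3, 70.6 for Id1 and 10.2 for Id4. The order of Id1, Id2 and Id3 thus turns on which transcript is expressed, and Id4 was lowest under both lengths. At E13.5 the level per kilobase was 60.7 CPM for Id3, 37 for Id2, 22.4 for Id1 and 9.28 for Id4 by the longest transcript.

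The balance within the family can be read from ratios inside 1 library, which need no scaling between libraries. Id1 counts were 0.689 times those of Id3 in E12.5 DMSO and 0.695 times in SB431542. The ratio was 0.458 and 0.946 in the SIS3 libraries, on either side of the control, and 0.335 in E13.5 DMSO. Id2 counts were 1.43 times those of Id3 in E12.5 DMSO, 1.18 in SB431542, 1.77 and 2.18 in SIS3 and 0.94 in E13.5 DMSO. Id3 relative to Id4 moved least, from 2.17 at E13.5 to 3.1 in SB431542, with 2.43 in E12.5 DMSO. The summed level of the 4 genes was 338 CPM in E12.5 DMSO, 333 in SB431542, 311 and 343 in SIS3 and 212 in E13.5 DMSO. The 4 libraries of E12.5 lay within 311 to 343 CPM of each other, and E13.5 was below them all.

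SB431542 against DMSO at E12.5 asks whether Id transcripts depend on signalling through TGF-beta and activin receptors. None of the 4 Id genes was called, on a background of 0% (0 of 19022 genes, by the quasi-likelihood test of edgeR at a Benjamini-Hochberg adjusted p of 0.05). Without adjustment, 108 genes were higher and 127 lower at an edgeR p under 0.05. Together they are 1.24% of the genes tested, fewer than this cut would give with no effect at all, so these counts show no signal. DESeq2 called 6 genes, all lower. Id1 had a log2 fold change of 0.08 (standard error, SE, 0.43, 95% interval -0.86 to 1.02) and Id3 one of 0.07 (SE 0.35, -0.69 to 0.83). Id2 had -0.21 (SE 0.34, -0.94 to 0.52) and Id4 -0.28 (SE 0.41, -1.17 to 0.60). Adjusted p was 1 for each in edgeR. The intervals allow anything from 0.445 times to 2.03 times the control level across the 4 genes, so a change of up to about that size was not detectable here. Among 12345 genes at a mean of 5 CPM or more, 30.1% (for Id4) to 78.2% (for Id3) had a fold change at least as large in either direction.

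Genes of the TGF-beta branch itself give a scale for these values. Pmepa1, a feedback inhibitor of TGF-beta Smads, stood at 49.2 CPM in E12.5 DMSO and 13.4 in SB431542, against 42 and 35.3 in SIS3 and 88.9 in E13.5 DMSO. Its log2 fold change with SB431542 was -1.93 (SE 0.41, 95% interval -2.81 to -1.06), with an adjusted p of 0.534 by edgeR, so it was not called. Of the 8 tested feedback genes of this branch, 0 were called with SB431542 and 7 had a negative sign, with a median of -0.57 against 0 over all genes tested. With SIS3, 1 of the 8 was called, against 3.82% of all genes, and 2 had a positive sign. The called gene was Ltbp2, at 1.17 and 0.424 CPM against 6.13 in the control (log2 fold change -3.10, SE 0.68, adjusted p 0.022 by edgeR). The direct difference between Pmepa1 and the Id genes was not tested.

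SIS3 against DMSO at E12.5 asks the same of Smad3, with the kit difference folded in. None of the 4 Id genes was called, on a background of 3.82% (727 of 19022 genes, with 0.794% higher and 3.03% lower). Id1 was at -0.31 on the log2 scale (SE 0.37, 95% interval -1.12 to 0.50, adjusted p 0.742 by edgeR). Against the control library alone it was 0.604 times in the first SIS3 library and 1.09 times in the second, so the direction turned on the library: the fitted value was 0.03 without the first and -0.77 without the second. Id2 had 0.15 (SE 0.29, -0.48 to 0.78), and it was above the control in both SIS3 libraries, at 1.12 and 1.21 times. Id3 had -0.30 (SE 0.30, -0.95 to 0.35), at 0.91 and 0.795 times, and its value became 0.01 with trends on GC content and length removed. The same alternative took Id1 to -0.02. Id4 had -0.48 (SE 0.35, -1.24 to 0.28, adjusted p 0.553), at 0.757 and 0.753 times. It was called only where all 8 columns were taken as samples (-0.47, adjusted p 0.0125 by edgeR), a fit that called 38.1% of genes, and with the replicate number added to that fit. Its adjusted p ran from 0.0125 to 0.804 over the alternatives.

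**Figure D2:**
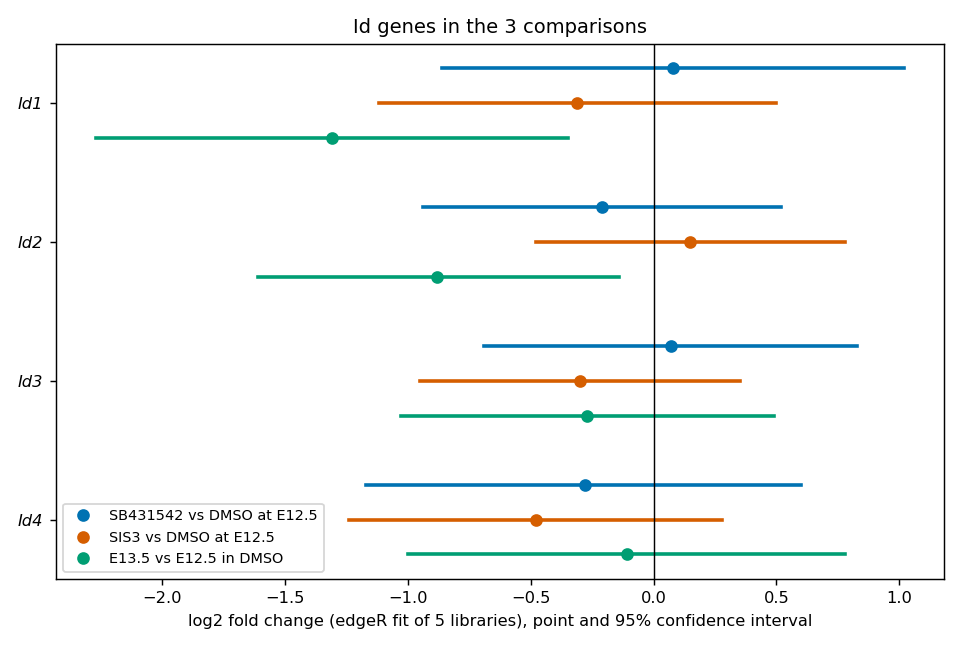
Log2 fold change of each Id gene in the 3 comparisons (horizontal axis), as points with 95% confidence intervals from the edgeR fit of 5 libraries. The intervals of Id1 and Id2 at E13.5 against E12.5 end below 0 (-2.27 to -0.35 and -1.61 to -0.14) before adjustment, and the other 10 include 0.

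E13.5 against E12.5 in DMSO asks how Id transcripts differ with a day of tooth development. None of the 4 Id genes was called after adjustment, on a background of 5.23% (995 of 19022 genes, with 4.06% higher and 1.17% lower). Id1 and Id2 were the members furthest from 0. Id1 was at 0.402 times its E12.5 level in the fit, or -1.31 on the log2 scale (SE 0.44, 95% interval -2.27 to -0.35, unadjusted p 0.0115, adjusted p 0.102 by edgeR). Id2 was at 0.544 times, or -0.88 on the log2 scale (SE 0.34, -1.61 to -0.14, unadjusted p 0.0227, adjusted p 0.139 by edgeR). Id3 had -0.27 (SE 0.35, -1.03 to 0.49) and Id4 -0.11 (SE 0.41, -1.0 to 0.78).

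A difference of this size was common in the comparison. Among the 12345 genes at a mean of 5 CPM or more, 11.3% had a fold change at least as large as that of Id1 and 22.6% one at least as large as that of Id2, against 68.2% for Id3 and 86.3% for Id4. Counting error is small beside this: the ratio of levels was 0.394 for Id1 (95% counting interval 0.355 to 0.436) and 0.533 for Id2 (0.5 to 0.567), and these intervals cover counting error only. With all 8 columns taken as samples, Id1 (-1.29, adjusted p 0.00279 by edgeR) and Id2 (-0.86, adjusted p 0.000242 by edgeR) were both called, in a fit that called 54.9% of genes. With no filter on low counts Id1 was called (-1.35, adjusted p 0.0208 by edgeR), where 7.49% of genes were. Both genes had a negative value in all 17 alternatives, from -1.35 to -1.20 for Id1 (adjusted p 0.00279 to 0.315 where edgeR or DESeq2 gave a test) and from -0.94 to -0.78 for Id2 (0.000242 to 0.336).

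The E13.5 library was also set against the treated E12.5 libraries. Over all 6 pairs of groups and 4 genes, 24 comparisons, 1 was called and 5 had an unadjusted p under 0.05, all of them for Id1 or Id2 with the E13.5 library in the pair. The called value was Id2 at E13.5 against SIS3, at -1.03 on the log2 scale (SE 0.31, 95% interval -1.69 to -0.37, adjusted p 0.0297 by edgeR), in a pair where 24.2% of genes were called and the kits differ. The share called was 3.87% for E13.5 against SB431542 and 2.44% for SIS3 against SB431542. For Id1 at E13.5 the value was -1.40 against SB431542 (SE 0.44, adjusted p 0.0954 by edgeR) and -1.0 against SIS3 (SE 0.39, adjusted p 0.0823 by edgeR). The 3 E12.5 groups did not separate for any Id gene in these tests, with the smallest adjusted p among their pairs at 0.553. These pairs share the E13.5 library and are not independent.

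The listed BMP receptors, the Smads of the branch and the ligands Bmp2, Bmp4 and Bmp7 were present in all libraries. Some other ligands were at 0 counts in some libraries, such as Gdf5 in E13.5 DMSO and Bmp8a in both SIS3 libraries. Of 12 BMP ligands, 11 were tested and 0 were called in each of the 3 comparisons (SB431542, SIS3 and E13.5), against 0%, 3.82% and 5.23% of all genes. With 11 genes, 0 calls is near those shares. Bmp4, a ligand made by the early dental mesenchyme, stood at 80.7 CPM in E12.5 DMSO, 67.8 in SB431542, 57.7 and 43.7 in SIS3 and 89.2 in E13.5 DMSO. At E13.5 it had a log2 fold change of 0.17 (SE 0.37, 95% interval -0.63 to 0.98), an interval that allows lower as well as higher levels. With SIS3 Bmp4 had -0.74 (SE 0.32, 95% interval -1.43 to -0.06, adjusted p 0.255 by edgeR), and 4 of the 11 ligands had a positive sign there. Bmp2 stood at 36.3 CPM in E12.5 DMSO and 30.8 at E13.5, and Bmp7 at 11.4 and 11.6.

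Among the 8 BMP receptors, 0 were called with SB431542 and 0 at E13.5, and 2 with SIS3, against 0%, 5.23% and 3.82% of all genes. Bmpr1b, a type I receptor, was higher, at 19.7 and 23.3 CPM against 4.49 in the control (log2 fold change 2.19, SE 0.56, adjusted p 0.0465 by edgeR). Eng, an endothelial co-receptor, was lower, at 7.51 and 5.83 CPM against 28.1 (-2.15, SE 0.43, adjusted p 0.0123 by edgeR). Bmpr1a, the type I receptor with the higher count, stood at 241 CPM in E12.5 DMSO and 170 at E13.5, a log2 fold change of -0.47 (95% interval -1.18 to 0.24). Of the 4 Smads of the branch, Smad1, Smad5, Smad9 and their partner Smad4, 0 were called in each comparison. Smad1 stood between 68.4 and 86.4 CPM and Smad5 between 208 and 244 CPM over the 5 libraries.

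Of 11 extracellular antagonists tested, 0 were called with SB431542 (0% of all genes), 2 were lower with SIS3 (3.03%) and 1 was higher at E13.5 (4.06%). Sostdc1, a secreted BMP and Wnt antagonist of the tooth germ, stood at 62.1 CPM in E12.5 DMSO, 27.7 in SB431542, 18.5 and 16.8 in SIS3 and 193 in E13.5 DMSO. It fell with SIS3 (log2 fold change -1.89, SE 0.31, adjusted p 0.00393 by edgeR) and rose at E13.5 (1.66, SE 0.37, adjusted p 0.0228 by edgeR). Fst, which encodes the activin- and BMP-binding follistatin, fell with SIS3 (-1.44, SE 0.36, adjusted p 0.0409 by edgeR) and stood at 67.5 CPM at E13.5 against 35.7 at E12.5 (0.95, 95% interval 0.04 to 1.86, adjusted p 0.188 by edgeR). Nog, which encodes noggin, stood at 2.34 to 5.81 CPM over the libraries.

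The other transcripts often read as BMP-Smad output were set beside the Id genes. Of 20 such targets tested, 0 were called with SB431542 (median log2 fold change -0.22), 2 were lower with SIS3 (median -0.60) and 0 were called at E13.5 (median -0.36), against 0%, 3.82% and 5.23% of genes called and a median of 0 over all genes in each comparison. The pair called with SIS3 was Dlx3 (-3.04, SE 0.61, adjusted p 0.025 by edgeR) and Sp7 (-3.34, SE 0.33, adjusted p 6.65e-05 by edgeR), which encode regulators of hard-tissue cells. Smad6 and Smad7 encode the inhibitory Smads that feed back on the pathway. Smad6 stood at 51.2 CPM in E12.5 DMSO and 49.5 at E13.5, and Smad7 at 120 and 79.6. Bambi, a decoy receptor, stood at 44.8 CPM in E12.5 DMSO, 32 in SB431542, 33.5 and 30.2 in SIS3 and 28.5 in E13.5 DMSO.

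At E13.5 against E12.5, 16 of the 20 targets had a negative sign, as the 4 Id genes did, and 4 a positive one. The sign of Tbx20, 1 of the 16, rests on counts at or under the floor of 3 counts. Other lists also leaned negative, with 10 of 12 dental mesenchyme markers and 6 of 8 BMP receptors, while 7 of 11 BMP ligands were positive. The share of all genes with a negative sign was not counted. In 8 of the 20 targets the E13.5 library was the lowest of the 5, as for Id1 and Id2: Smad7, Bambi, Msx2, Dlx5, Dlx6, Atoh8, Tbx3 and Lef1. The share of all genes lowest in that library was not counted either, so the 8 cannot be read as a trait of these targets. Dlx5 (70.3 CPM in E12.5 DMSO and 35.4 at E13.5, log2 fold change -0.96, 95% interval -1.78 to -0.14) and Msx2 (-0.98, -3.09 to 1.13) had values below that of Id2, and Tbx3 had -0.77 (-1.47 to -0.07). Dlx5, Dlx6, Tbx3 and Lef1 are named after their values were seen. Smad9, a receptor-regulated Smad, was among the 4 with a positive sign, at 54.7 CPM at E13.5 against 37.4 at E12.5 (0.58, -0.31 to 1.46). Msx1, which encodes a homeobox factor needed for tooth development, stood at 472 CPM in E12.5 DMSO and was lower in all 4 other libraries, at 321, 364, 280 and 362. Hey1 stood at 41.1 CPM in E12.5 DMSO, and at 20 and 11.5 in SIS3 (log2 fold change -1.46, adjusted p 0.0727 by edgeR). Atoh8 stood at 5.94 to 10.5 CPM and Msx2 at 1.2 to 7.21 CPM, where intervals are wide. No difference between these genes and the Id genes was tested.

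**Figure D3:**
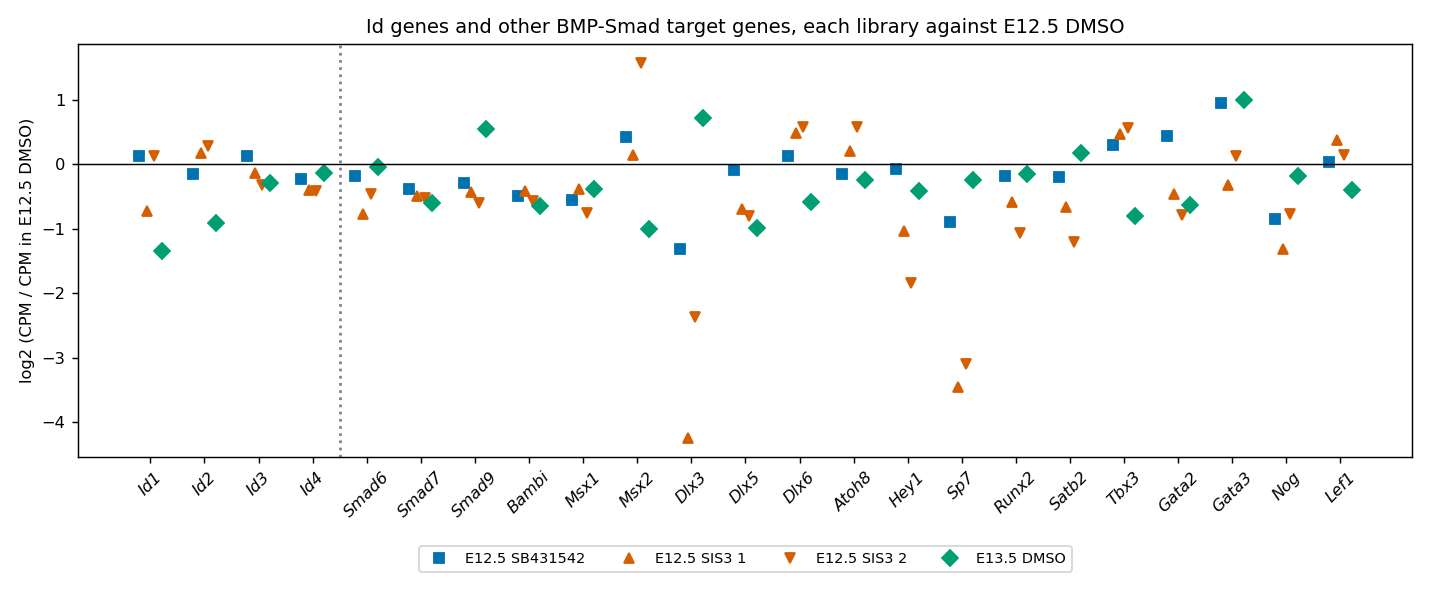
Log2 ratio of CPM in each of 4 libraries to CPM in E12.5 DMSO (vertical axis) for the 4 Id genes, left of the dotted line, and 19 of the 20 other BMP-Smad target genes (Tbx20 had 0 counts in the E13.5 library). At E13.5 Id1 and Id2 lie at -1.34 and -0.91, and the other targets run from -1.01 (Msx2) and -0.99 (Dlx5) to 1 (Gata3).

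The partners that Id proteins bind were measured as well. The E proteins Tcf3, Tcf4 and Tcf12 were called in 0 of 3 cases in each comparison, with medians of 0.04, -0.07 and -0.31. Tcf4 stood at 620 CPM in E12.5 DMSO, 901 in SB431542, 881 in each SIS3 library and 569 in E13.5 DMSO, Tcf3 at 168 to 248 CPM and Tcf12 at 425 to 633 CPM. Of 29 tissue-specific bHLH factors, 17 were tested, with 0 called under SB431542, 0 under SIS3 and 1 at E13.5, against 0%, 3.82% and 5.23% of all genes. The 1 of 17 at E13.5 is near the share over all genes. That gene was Myod1, the muscle determination factor, at 7.72 CPM in E12.5 DMSO and at 0 counts in the E13.5 library, at least 45.1-fold lower against a floor of 3 counts. Pax7, a marker of muscle progenitors, was also at 0 there. Twist1, a bHLH factor of cranial mesenchyme, stood between 191 and 248 CPM over the libraries, and Hand2 between 3.54 and 12.3 CPM.

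Cell type markers moved with some of the groups, and since whole germs were used, fewer cells of a type and less RNA per cell cannot be told apart. The dental mesenchyme markers were abundant in every library, at a summed 3850 to 9090 CPM with none of 12 at 0. Col1a1 weighs heavily in this sum, at 3330 CPM in E12.5 DMSO, 1900 in SB431542, 610 and 606 in SIS3 and 5980 in E13.5 DMSO. The sum was highest at E13.5, while 10 of the 12 had a negative sign there (median log2 fold change -0.25) and 2 a positive one, Col1a1 among them. The 15 endothelial markers summed to 495 CPM in E12.5 DMSO, 570 in SB431542, 62.5 and 63.3 in SIS3 and 539 in E13.5 DMSO. With SIS3, 13 of 15 were called lower, against 3.03% of all genes. The 11 macrophage markers summed to 73.4, 66.6, 8.34, 5.2 and 139 CPM in the same order, and 6 of 11 were called lower with SIS3. C1qa was at 0 in the first SIS3 library, and C1qb, C1qc, Cx3cr1 and Adgre1 in the second. Also called lower with SIS3 were 4 of 10 skeletal muscle markers (Actc1, Myh3, Ttn and Des) and 2 of 12 dental mesenchyme markers (Dlx2 and Col1a1). Id1 and Id3 are also known for their roles in endothelial cells. The SIS3 libraries had endothelial sums within 1 CPM of each other and Id1 levels of 39.9 and 71.9 CPM.

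The 13 markers of dental and oral epithelium summed to 177 CPM in E12.5 DMSO, 66.7 in SB431542, 92.7 and 369 in SIS3 and 226 in E13.5 DMSO. The SIS3 library with more epithelial markers was also the one with more Id1. With SB431542 all 13 had a negative sign and 0 were called, while Id1 stood at 1.1 times the control. Skeletal muscle markers summed to 804, 870, 292, 241 and 830 CPM, with Myod1 and Pax7 at 0 in the E13.5 library. Erythroid markers summed to 664, 731, 1360, 611 and 234 CPM, and neuron and Schwann markers to 40.8 to 52.5 CPM. At E13.5, 2 of 10 muscle markers (Myod1 and Pax7) and 1 of 9 erythroid markers were called lower, against 1.17% of all genes. The erythroid one was Hbb-bh1, an embryonic globin gene (-3.58, adjusted p 0.026 by edgeR), and the erythroid list had a median of -1.72. None of the 15 endothelial, 11 macrophage, 13 epithelial, 12 dental mesenchyme or 11 tested neuron and Schwann markers was called there. The part of these markers in the Id values was not tested.

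**Figure D4:**
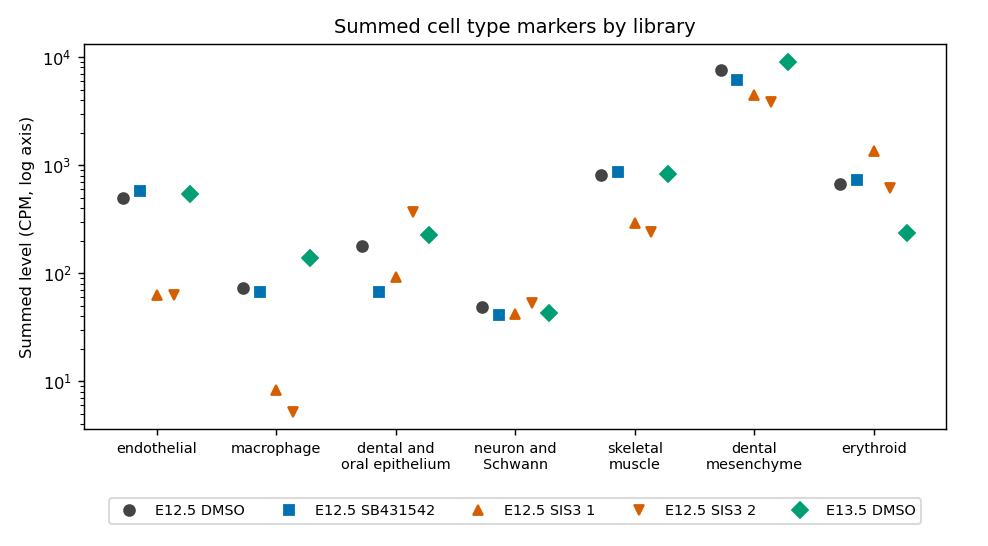
Summed level of each marker list (CPM, log axis) in the 5 libraries. Col1a1 gives 5980 of the 9090 CPM of dental mesenchyme markers in E13.5 DMSO. Endothelial markers stand at 62.5 and 63.3 CPM in the SIS3 libraries against 495 to 570 CPM elsewhere, and epithelial markers range from 66.7 CPM in SB431542 to 369 CPM in the second SIS3 library.

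Genes with a profile like that of each Id gene were ranked by the root mean square difference of log2 CPM over the 5 libraries. Each gene was centred on its own mean. The 11760 genes compared had a mean of 5 CPM or more, and symbols made of Gm plus digits or ending in Rik were left out. Nearest to Id1 were Qdpr (0.0642), Acsl1, Ndufa1, Rnf24 and Ints9. Qdpr stood at 32.5 CPM in E12.5 DMSO, 39.9 in SB431542, 19.5 and 35.6 in SIS3 and 13.4 in E13.5 DMSO, with the same low libraries as Id1. Nearest to Id2 were Trit1 (0.0346), Tmem251, Glt8d1, Grpel1 and Btf3. Nearest to Id3 were Sema6a (0.0218), Tjap1, Arhgap21, Pkia and Idh3g, and nearest to Id4 were Cnot9 (0.0329), Syncrip, Slx4ip, Haus7 and Tkt. With 5 libraries, close matches among this many genes are common, and the ranking is a description.

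The Id genes were not near each other in this ranking. From Id1, Id2 ranked 1387, Id3 3563 and Id4 5597. From Id2, Id1 ranked 4635, although both were lowest at E13.5. Id3 and Id4 were the closest pair, with a difference of 0.183, Id4 ranking 939 from Id3 and Id3 ranking 864 from Id4. None of the 20 genes named as nearest is an Id gene.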

How the data were processed

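Per the labels' protocols, total RNA was extracted from whole cultured germs and made into libraries with 2 kits. The deposited table holds unscaled estimated counts per gene in whole numbers. Named in the submitters' processing notes, without roles or versions, are Salmon, HISAT2, SAMtools, deepTools, DESeq2 and mm10. The sources used here give neither the annotation nor the counting options. Salmon assigns shared reads by estimation, so if it made these counts, genes with near-identical copies can gain or lose counts.

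The paired columns of 3 groups were summed. A pair was summed where the variance ratio over genes with 1 transcript and at least 50 counts was below 1.5. A first version of this check used the mean ratio, which exceeded 1.5 in all 4 groups (2.27, 3.03, 30.9 and 1.56 for E12.5 DMSO, SB431542, SIS3 and E13.5 DMSO), so that no pair would have been summed. The median ratio (1.26, 1.21, 11.1 and 1.19) was adopted after those values had been seen. Over genes with 2 to 6 transcripts the median (1.9, 1.87, 11.5 and 1.55) exceeded 1.5 in all 4 groups. With 8 columns as samples, Id1 and Id2 were called at E13.5 and Id4 with SIS3.

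edgeR 4.0.16 (R 4.3.3) was fitted with TMM factors on 19022 genes kept by filterByExpr, with a robust quasi-likelihood F test, a group-only design and Benjamini-Hochberg adjusted p under 0.05. The fit had 1 residual degree of freedom, from the SIS3 pair, and a median of 12.5 borrowed across genes. The biological coefficient of variation was 29.3%. The sources used here do not say whether the SIS3 libraries are separate cultures, so p-values measure only the spread between these samples, which may be technical. A floor of 3 counts corresponds to 0.0969 to 0.5 CPM. Counting intervals cover counting error only, since the labels' protocols name no molecular identifiers. Alternatives were DESeq2 1.42.0, other scalings and filters, 8 columns with and without the replicate block, 2 groups alone, fewer gene classes, trends on GC content and length removed, and each column left out. Scripts were tested on simulated data. GENCODE M21 gave gene positions and matched 98.7% of rows, and RefSeq gave promoters. The Id genes, the gene lists and the genes named were chosen with earlier results of these data known. The named genes were the Id genes, called list members, a set of pathway genes listed by name, and the 5 nearest profiles. Some further list members, such as Bmpr1a, Smad1, Smad5, Gdf5 and Bmp8a, were named outside this rule.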

Additional observations from a re-analysis of the deposited data

How the results depend on the processing

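For the 12 Id values (4 genes in 3 comparisons), 198 alternative values counted as unchanged, 7 passed the threshold, 2 reversed and 1 moved by more than its standard error. Unchanged means the same direction and side of the threshold where a test was given. Fits without a SIS3 column gave no test, and there it means the same direction and a move smaller than the standard error. With all 8 columns as samples and no block, edgeR called Id4 with SIS3 (-0.47, adjusted p 0.0125), Id1 at E13.5 (-1.29, 0.00279) and Id2 at E13.5 (-0.86, 0.000242). With the replicate block the values were -0.46 (0.0205), -1.30 (0.00474) and -0.86 (0.000814). Deviations of same-numbered columns correlated at -0.0899 to 0.0419 between groups over 12368 genes. Each pair of groups includes a group whose columns were summed as close to a chance split. These correlations therefore cannot tell whether the numbers pair the samples. With no low-count filter Id1 at E13.5 was called (-1.35, 0.0208). With GC and length trends removed, Id3 with SIS3 was 0.01 and Id1 with SIS3 was -0.02. Leaving out 1 column gave Id1 with SIS3 as -0.77 to 0.03, with no test where a SIS3 column is left out; the other Id values kept their direction.

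Genes called with SB431542, 0 in the reported fit, were 259 with 8 columns, 83 with the replicate block, 27 with no filter, 6 by DESeq2 and 0 to 1 with a column left out. With SIS3, 727 became 6764, 6194 with the block, 1414 with no filter, 130 at 5 CPM or more, 232 with the 2 groups alone, 323 without receptor, predicted and pseudogenes, 418 with trends removed and 488 to 708 with a column left out. At E13.5, 995 became 9742, 9260 with the block, 2062, 192, 59 without receptor, predicted and pseudogenes, 399 with trends removed, 569 by DESeq2 and 399 to 903 with a column left out (662 without the second E12.5 DMSO column, 419 and 399 without the first and second E13.5 column). The causes were not tested. Id gene by group-pair calls, 1 in the reported fit, were 11 with 8 columns with or without the block, 4 with no filter, 0 at 5 CPM or more and 2 with trends removed; this count was added after seeing the data. Fits of 2 groups alone could not be run for SB431542 and E13.5, which leave no residual degrees of freedom. Another scaling moved the median of all genes by at most 0.049 log2. At this number of libraries the median 95% interval reached 1.05 to 1.26 log2 to either side.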
